A study of Drosophila melanogaster with 4 samples.

Results

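The genes described here are the 70 cuticular protein genes of Drosophila melanogaster whose symbol begins with Cpr followed by a digit. They were picked by symbol alone from a table of 17684 RefSeq genes of genome Release 6 on chromosome arms 2L, 2R, 3L and 3R and chromosomes 4 and X, and the rule uses no measured value. Cpr genes encode structural proteins of the insect exoskeleton that carry the Rebers and Riddiford chitin-binding motif. Epidermal cells secrete these proteins late in embryogenesis and around each moult, where they bind chitin and give the cuticle its stiffness or flexibility. Cuticle is not yet made at the ages studied here. Expression was not measured in these samples, so whether the genes were silent here is not known from the data.

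Binding sites of the helicase Maleless (MLE), which remodels roX RNA and belongs to the complex that raises X transcription in males, were mapped by CUT&RUN in whole male embryos. In CUT&RUN an antibody directs a nuclease to the protein on chromatin, and the DNA it releases is sequenced. There were 4 groups with 1 list of called peaks each: CLAMP RNAi 2-4 h, control 2-4 h, CLAMP RNAi 0-2 h and control 0-2 h. Mothers of the CLAMP RNAi groups were MTD-GAL4>CLAMPRNAi and those of the control groups MTD-GAL4>GFPRNAi. MTD-GAL4 drives the RNAi construct in the maternal germline, so CLAMP, a GA-repeat binding protein, was targeted through the mother. How much CLAMP the embryos themselves held was not examined here. All 4 groups share that driver, the rat anti-MLE antibody and male embryos bred with meiotic drive stocks. Embryos of many timed layings were pooled, and the titles call the 2-4 h samples pre-MZT, whereas the series design places that age after the maternal to zygotic transition (MZT).

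The lists held 15890 peaks (CLAMP RNAi 2-4 h), 25026 (control 2-4 h), 22489 (CLAMP RNAi 0-2 h) and 28246 (control 0-2 h) on the 6 arms. The CLAMP RNAi 2-4 h list was the shortest and had the narrowest peaks, with a median width of 245 bp against 364 to 375 bp in the others. Numbers of reads per list were not used here. With 1 list per group no comparison between groups has a replicate check and no p-value is given. Intervals are exact 95% intervals that cover counting error only, and neighbouring genes are not independent of each other.

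A gene was counted as having a peak when a peak midpoint lay in its span or within 500 bp of either end. In the CLAMP RNAi 2-4 h list 16 of 70 Cpr genes had a peak, which is 22.9% (13.7% to 34.4%), against 30.9% of all genes. In control 2-4 h the number was 22, or 31.4% (20.9% to 43.6%), against 43.2% of all genes. In CLAMP RNAi 0-2 h 23 Cpr genes had a peak, or 32.9% (22.1% to 45.1%), against 38.3% of all genes. In control 0-2 h it was 29, or 41.4% (29.8% to 53.8%), against 46.5% of all genes. In each list the share of Cpr genes was below that of all genes and its interval held that share, so a difference was not detectable with 70 genes.

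Cpr genes are short, and short genes offer a smaller window. Their spans ran from 457 bp to 18590 bp with a median of 1093.5 bp, against a median of 1710 bp over all genes. Among the 53 Cpr genes of at most 2 kb, 10, 12, 14 and 18 had a peak in CLAMP RNAi 2-4 h, control 2-4 h, CLAMP RNAi 0-2 h and control 0-2 h. These are 18.9%, 22.6%, 26.4% and 34.0%, and all genes of at most 2 kb gave 16.4%, 27.8%, 22.8% and 30.6% in the same order. Among the 17 longer Cpr genes, 6, 10, 9 and 11 had a peak, or 35.3%, 58.8%, 52.9% and 64.7%, against 49.3%, 62.7%, 58% and 66.7% of all genes over 2 kb. Every one of these Cpr shares had an interval that held the share of all genes of the same length class.

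**Figure D1:**
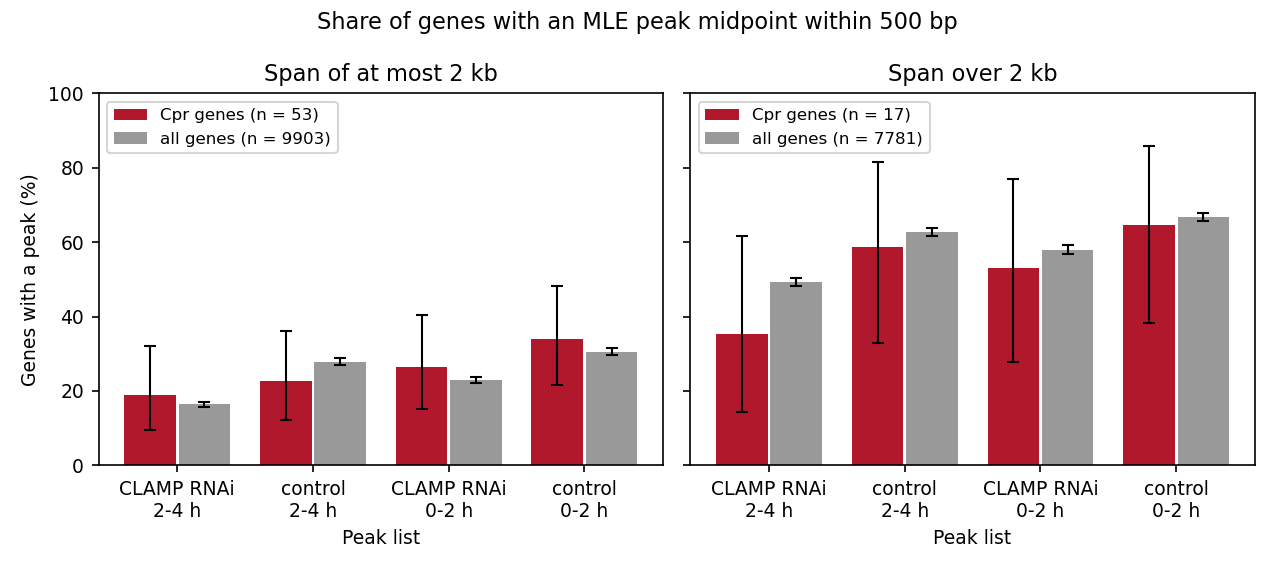
Share of genes with an MLE peak midpoint within 500 bp (vertical axis, %) in each of the 4 peak lists, for Cpr genes (red) and all genes (grey), split by gene span at 2 kb. Bars are shares and whiskers exact 95% intervals; the whiskers of the Cpr genes cover the grey bars in both panels.

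A finer split by span gave nearly the observed numbers. When the rates of all genes of at most 1 kb, 1 to 2 kb, 2 to 5 kb and over 5 kb were applied to the Cpr genes, they corresponded to 16.6 genes with a peak in CLAMP RNAi 2-4 h, where 16 were found. They corresponded to 24.9 in control 2-4 h (22 found), 21.5 in CLAMP RNAi 0-2 h (23 found) and 27.0 in control 0-2 h (29 found). A Cpr gene thus carried an MLE peak about as often as any gene of its length. In percentage points the class over 5 kb stood farthest below its rate in each list, with 3, 5, 4 and 4 of 7 Cpr genes in the same order of lists, against 74.5%, 85.0%, 81.9% and 87.6% of all genes over 5 kb. Those 7 genes had a median span of 7655 bp and all genes of that class one of 11325.5 bp, so lengths still differed within it.

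As a second reference, the windows of the 70 genes were shifted along their arms by fixed distances in steps of 50 kb up to 2.5 Mb to either side, which gave 100 placements. Windows of neighbouring genes overlap in part, and their union formed 62 stretches of 222 kb in all. In CLAMP RNAi 2-4 h this union held 9.01 peaks per 100 kb, against a mean of 12.7 in shifted placements (range 5.86 to 18.0). In control 2-4 h it held 16.2 peaks per 100 kb, against 20.1 (12.6 to 28.4). In CLAMP RNAi 0-2 h it also held 16.2, against 17.9 (9.47 to 29.7), and in control 0-2 h 19.4, against 22.8 (14.0 to 34.3). Density at the Cpr genes was therefore 0.709, 0.808, 0.905 and 0.849 of the shifted mean in these lists, lower in each but inside the range of placements. Counted by gene, shifted windows held a peak at a mean of 20.8 genes (range 11 to 31) in CLAMP RNAi 2-4 h and of 29.4 genes (20 to 39) in control 2-4 h. At 0-2 h the means were 27.0 genes (14 to 39) in CLAMP RNAi and 32.7 (23 to 44) in control.

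**Figure D2:**
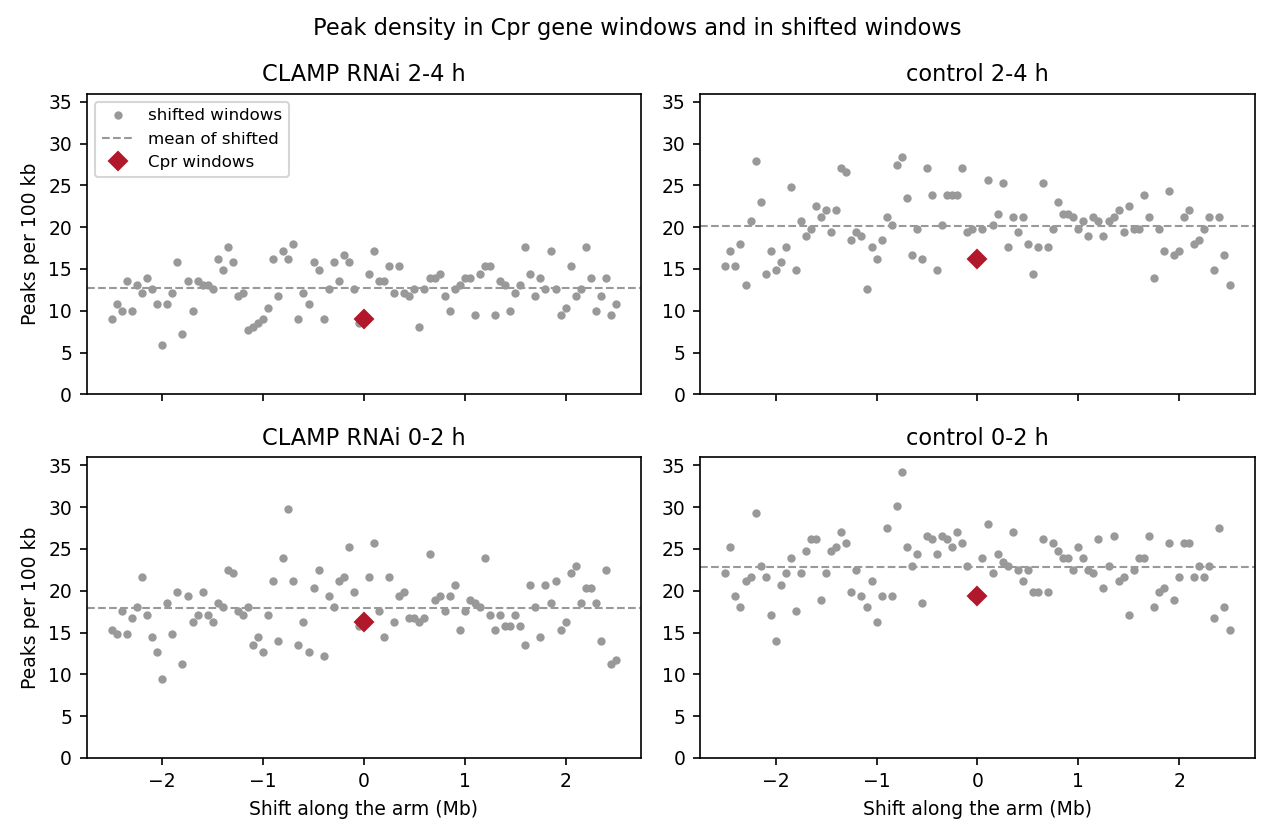
Peaks per 100 kb (vertical axis) in the windows of the 70 Cpr genes (red diamond) and in the same windows shifted along the arm (grey points, horizontal axis in Mb), 1 panel per peak list. The diamonds stand at 9.01, 16.2, 16.2 and 19.4 peaks per 100 kb, below the dashed mean of the shifted placements and among the grey points.

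Distance to the nearest peak also depended on which genes were set beside the family. From the span of a Cpr gene to the nearest peak midpoint the median was 3958 bp at 2-4 h in CLAMP RNAi and 1702 bp in control, and at 0-2 h 1741 bp in CLAMP RNAi and 795.5 bp in control. For all genes these medians were 2160, 862.5, 1229.5 and 680 bp, lower than for Cpr genes in each list. For genes of at most 2 kb they were 3128, 1536, 2006 and 1295 bp. Cpr genes lay closer to a peak than such genes in both 0-2 h lists and farther away in both 2-4 h lists, in a set with 17 longer genes.

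The peaks at Cpr genes ranked from low to fairly high in their lists, more of them low than high, and none was in the upper 10%. The score of a peak, the authors' own value, was turned into a percentile, the share of its own list at or below that score. The median percentile was 45.8% over 20 peaks in CLAMP RNAi 2-4 h, 36.3% over 36 in control 2-4 h, 37.1% over 36 in CLAMP RNAi 0-2 h and 45.4% over 43 in control 0-2 h. Peaks at genes of at most 2 kb had medians of 61.9%, 45.0%, 45.3% and 45.4% in the same order, and peaks at all genes 61.9%, 51.3%, 51.8% and 50.4%. The Cpr median was thus below that of short genes in 3 lists and equal to it in control 0-2 h, with no test of the difference. Tied scores all take the highest percentile of the tie, so a small step in score can be a large step in percentile. In CLAMP RNAi 2-4 h the median score was 30.5 at Cpr genes and 32 in the whole list. The strongest reached 87.7%, 87.4%, 88.8% and 85.9% of its list. Not one peak at a Cpr gene belonged to the upper 10% of scores of its list. By the limit of 3 counts, a count of 0 allows a share of up to 15% of 20 peaks, 8.33% of 36 (in control 2-4 h and again in CLAMP RNAi 0-2 h) and 6.98% of 43, and the exact 95% intervals reach 16.8%, 9.74% (both lists of 36 peaks) and 8.22%. Peaks at genes of at most 2 kb belonged to the upper 10% in 8.23%, 7.73%, 7.99% and 7.38% of cases. The exact intervals held these shares in each list, so a difference from short genes was not detectable. Peaks at Cpr genes over 2 kb are among those counted, so short genes match them only in part. Of peaks at all genes, 10.0%, 10.1%, 10.1% and 10.2% belonged to the upper 10%. These shares were inside the exact interval in CLAMP RNAi 2-4 h and above it in the other 3 lists.

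Counted by gene, 0 of 70 Cpr genes had such a strong peak in any list, which allows up to 4.29% by the limit of 3 genes and 5.13% by the exact interval. Of all genes 11% had one in at least 1 list, and of genes of at most 2 kb 3.48%. By list, in the order used above, the shares were 5.83%, 8.13%, 7.33% and 8.99% of all genes and 1.57%, 2.38%, 2.1% and 2.61% of genes of at most 2 kb. The rates of the 4 span classes corresponded to 5.07 Cpr genes with one in any list, and to 2.57, 3.66, 3.28 and 4.04 genes by list. For any list these 5.07 genes are 7.25% of the family. The exact upper bound of 5.13% lay above the share of genes of at most 2 kb, and below both the 7.25% from the span classes and the 11% of all genes. Within the class over 5 kb, which enters the span-class value, Cpr genes were shorter than all genes, as given above.

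**Figure D3:**
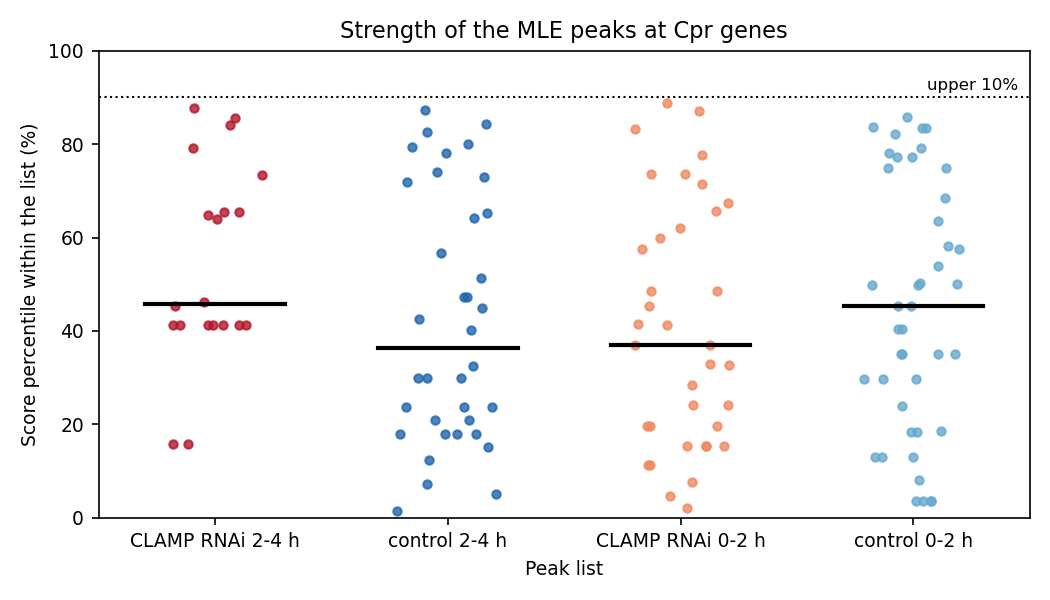
Score percentile within its own list (vertical axis, %) of each peak at a Cpr gene, by peak list; black bars are medians and horizontal spread is only for legibility. The highest points lie at 87.7%, 87.4%, 88.8% and 85.9%, all under the dotted line of the upper 10%.

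Over the 4 lists, 40 of 70 Cpr genes had a peak in at least 1 list (57.1%, against 60.8% of all genes), and 30 had none. Of genes of at most 2 kb 46.3% had a peak in at least 1 list, and the rates of the span classes corresponded to 37.5 Cpr genes. The genes without a peak included Cpr23B, Cpr31A and Cpr35B on 2L, Cpr64Ab, Cpr64Ac and Cpr64Ad on 3L, and Cpr62Ba, the longest of them at 7655 bp. A peak in all 4 lists was found at 9 Cpr genes (12.9%), against 21.9% of all genes and 7.75% of genes of at most 2 kb. The rates of the span classes corresponded to 10.4 genes. Another 15 Cpr genes had a peak in exactly 1 list (21.4%, against 17.8% of all genes).

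**Figure D4:**
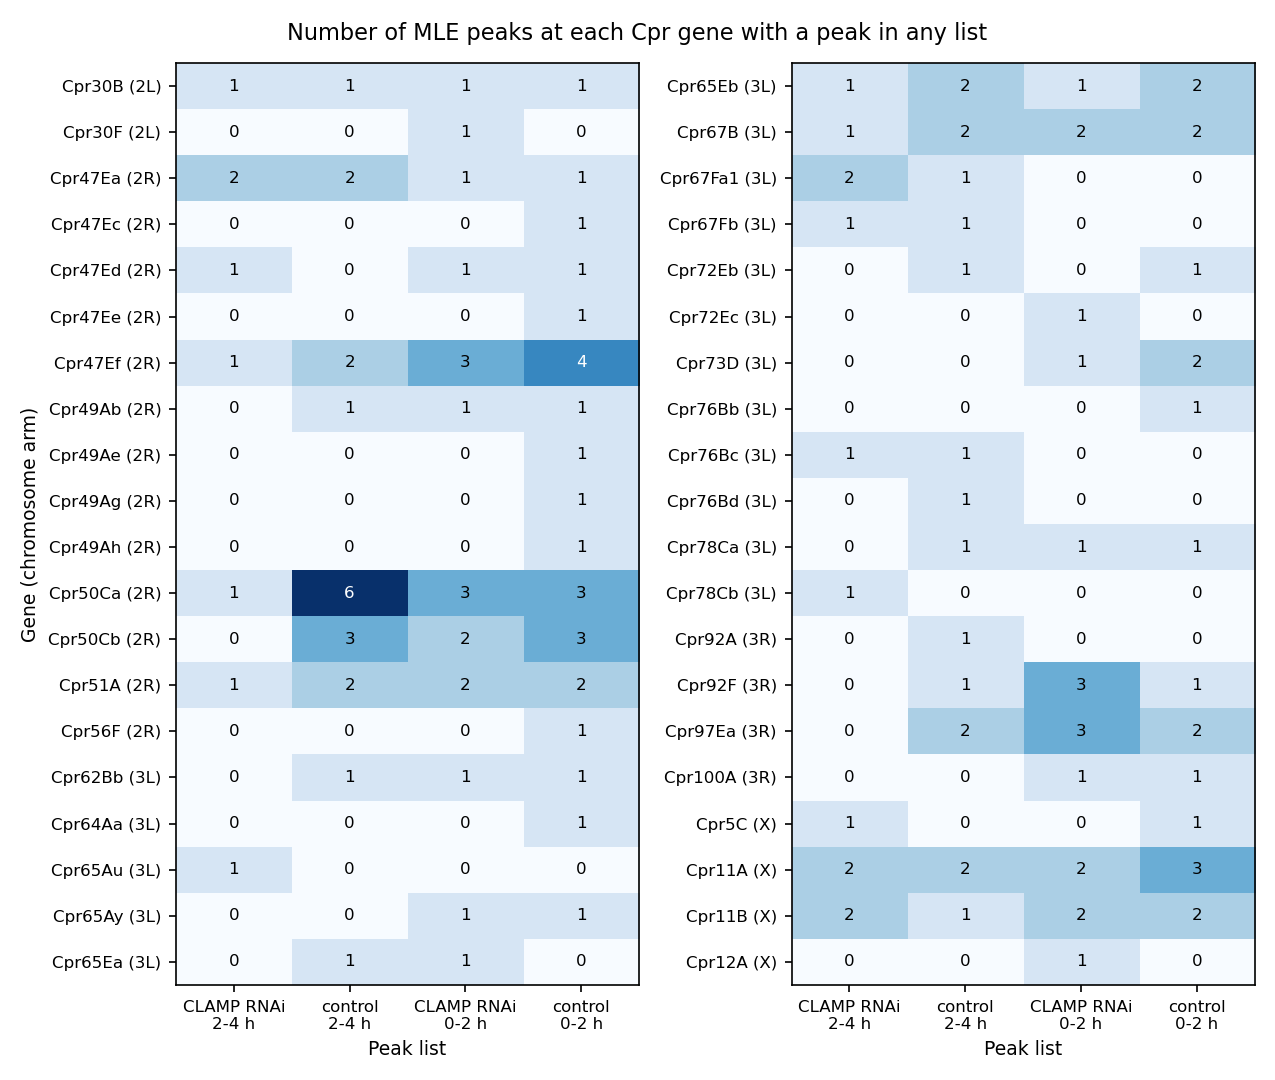
Number of MLE peaks with their midpoint in the span or within 500 bp, for the 40 Cpr genes with a peak in any list (rows, with chromosome arm) in the 4 peak lists (columns); darker blue is more peaks. The 9 genes filled in every column include Cpr11A and Cpr11B on the X, and the highest number is 6, at Cpr50Ca in control 2-4 h.

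The X carried 4 Cpr genes, and each had a peak in at least 1 list, against 60.8% of all genes. The share of all X genes with a peak in at least 1 list was not counted. By list, 3, 2, 3 and 3 of them had one in CLAMP RNAi 2-4 h, control 2-4 h, CLAMP RNAi 0-2 h and control 0-2 h, against 40.0%, 51.5%, 48.1% and 56.3% of all X genes. Of the 66 autosomal Cpr genes, 13, 20, 20 and 26 had a peak, or 19.7%, 30.3%, 30.3% and 39.4%, against 29.2%, 41.7%, 36.6% and 44.7% of all autosomal genes, and the interval of each Cpr share held the share of all. With 4 genes the X share has an interval of 19.4% to 99.4% for 3 of 4, so X and autosomal Cpr genes could not be told apart by it.

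Cpr11A, at 12486970 to 12489448 on the X, had 2 sites common to the 4 lists, 1 beyond its lower end and 1 across its upper end. The first had a percentile of 65.4% in CLAMP RNAi and 79.3% in control at 2-4 h, and 83.2% in CLAMP RNAi and 83.5% in control at 0-2 h. The second stood at 84.1%, 47.2%, 15.3% and 85.9% in that order. A further Cpr11A peak of 200 bp inside the gene, at 49.8%, was in control 0-2 h alone. Rank at the second site thus differed widely between lists, with a weak peak in CLAMP RNAi 0-2 h and a far higher one in both CLAMP RNAi 2-4 h and control 0-2 h.

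Cpr11B, at 12553124 to 12554235 on the X, lies inside the span of hwt, so its peaks cannot be assigned to either gene. A peak at its lower end had a percentile of 65.4% in CLAMP RNAi and 80.0% in control at 2-4 h, and 73.6% in CLAMP RNAi and 83.6% in control at 0-2 h. A peak beyond its upper end stood at 64.9% in CLAMP RNAi 2-4 h, and at 57.7% in CLAMP RNAi and 68.4% in control at 0-2 h, and the midpoint of the overlapping control 2-4 h peak fell outside the window. Both X genes thus had an MLE site at either end in all lists, counted by overlap.

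The other two X genes had single weak peaks. Cpr5C, at 5804677 to 5805344, had a peak of 369 bp at 45.3% in CLAMP RNAi 2-4 h and one of 200 bp at 18.5% in control 0-2 h, and these overlapped. Cpr12A, at 13543643 to 13544907, had a peak of 200 bp at 15.3% in CLAMP RNAi 0-2 h alone.

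On 3L, Cpr67B held the peaks of highest percentile in control 2-4 h and CLAMP RNAi 0-2 h, and Cpr65Eb stood high in every list. Cpr65Eb, at 7087713 to 7088787, had a peak at its lower end with a percentile of 85.7% in CLAMP RNAi and 82.5% in control at 2-4 h, and 87.1% in CLAMP RNAi and 83.5% in control at 0-2 h. This was the most even site of those named, high in each list and within a few points. A second Cpr65Eb peak in the upper part of the gene, at 7088325 to 7088705 in both lists that held it, had a percentile of 21.0% in the 2-4 h and 35.1% in the 0-2 h control, with 0 peaks there in either CLAMP RNAi list.

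Cpr67B, at 9404797 to 9406174 on 3L, had a peak beyond its upper end, inside the span of CG4022. Its percentile was 46.3% in CLAMP RNAi and 87.4% in control at 2-4 h, and 88.8% in CLAMP RNAi and 50% in control at 0-2 h. A peak at the lower end of Cpr67B stood at 84.4% in control 2-4 h, and at 45.4% in CLAMP RNAi and 50.2% in control at 0-2 h, and CLAMP RNAi 2-4 h had 0 peaks there. High and middling ranks at these sites did not follow either age or genotype.

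On 2L, Cpr30B, at 9542878 to 9543658, had a site just below its span in each list, whose midpoint fell inside CG17855 in CLAMP RNAi 2-4 h. Its percentile was 79.1% in CLAMP RNAi and 51.3% in control at 2-4 h, and 28.3% in CLAMP RNAi and 35.1% in control at 0-2 h. It ranked higher in both 2-4 h lists than in both 0-2 h lists.

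Of the 9 genes with a peak in every list, 4 lie on 2R. Cpr47Ea, at 11251751 to 11253398, had a site near its lower end with a percentile of 15.8% in CLAMP RNAi and 74.1% in control at 2-4 h, and 73.6% in CLAMP RNAi and 82.3% in control at 0-2 h. In CLAMP RNAi 2-4 h that site was a peak of 200 bp, the lowest width of the lists. A second Cpr47Ea site was found at 2-4 h alone, at 41.4% in CLAMP RNAi and 21.0% in control.

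Cpr47Ef, at 11266915 to 11272575 on 2R, had 1, 2, 3 and 4 peaks in CLAMP RNAi 2-4 h, control 2-4 h, CLAMP RNAi 0-2 h and control 0-2 h. Of the 4 in control 0-2 h, 1 at 13.1% had its midpoint inside the neighbouring Cpr47Ee and is counted for both genes. A peak at its upper end had a percentile of 87.7% in CLAMP RNAi 2-4 h, the highest of the family in that list, and 37.1% in CLAMP RNAi 0-2 h, and was in neither control list. A pair of sites in the middle of the gene was common to the other 3 lists and had 0 peaks in CLAMP RNAi 2-4 h.

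Cpr50Ca, at 13769915 to 13787802 on 2R, is 17888 bp long and had 1, 6, 3 and 3 peaks in the same order of lists. Its span overlaps S-Lap7 and a lncRNA gene. The 3 inner sites common to 3 lists had percentiles of 65.3%, 78.1% and 71.8% in control 2-4 h. The same sites stood at 32.8%, 7.67% and 77.7% in CLAMP RNAi 0-2 h, and at 77.2%, 49.8% and 45.4% in control 0-2 h. CLAMP RNAi 2-4 h had 0 peaks inside the gene, and its single peak, at 41.4%, lay below the span and overlapped a control 2-4 h peak at 32.5%.

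Cpr51A, at 14512559 to 14515211 on 2R, overlaps CG30197 and had a site at its upper end with a percentile of 64.0% in CLAMP RNAi and 56.6% in control at 2-4 h, and 33.0% in CLAMP RNAi and 58.1% in control at 0-2 h. An inner Cpr51A site at 5.18%, 11.4% and 53.9% was found in control 2-4 h, CLAMP RNAi 0-2 h and control 0-2 h and had 0 peaks in CLAMP RNAi 2-4 h.

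Over the family, few CLAMP RNAi 2-4 h peaks lay inside spans. In that list 5 of 20 peaks lay inside a Cpr span, or 3.22 peaks per 100 kb of span, against 22.6 per 100 kb of flank. In control 2-4 h 25 of 36 lay inside, or 16.1 per 100 kb of span and 16.6 per 100 kb of flank. At 0-2 h the values were 15.4 and 18.1 in CLAMP RNAi and 18.7 and 21.1 in control. Over all genes CLAMP RNAi 2-4 h had 12.3 peaks per 100 kb inside and 13.6 in flanks, and over genes of at most 2 kb 6.83 and 12.2. The family's low value inside spans rests on 5 peaks in the list with the fewest and narrowest peaks.

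Maternal CLAMP RNAi and control were compared gene by gene at each age. At 2-4 h, 12 Cpr genes had a peak in both lists, 4 in CLAMP RNAi alone and 10 in control alone. These are 17.1%, 5.71% and 14.3% of the family, against 25.1%, 5.75% and 18% of all genes. The other 44 (62.9%) had a peak in neither list, against 51.1% of all genes. Genes of at most 2 kb gave 10.6%, 5.82% and 17.3% in the same order, and 66.3% had a peak in neither list. The 4 found in CLAMP RNAi alone were Cpr47Ed, Cpr65Au, Cpr78Cb and Cpr5C, named after their values were seen.

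At 0-2 h, 19 Cpr genes had a peak in both lists, 4 in CLAMP RNAi alone and 10 in control alone, or 27.1%, 5.71% and 14.3%, against 32.6%, 5.73% and 13.9% of all genes. The other 37 (52.9%) had one in neither, against 47.8%. Genes of at most 2 kb gave 16.9%, 5.92% and 13.6% in the same order, and 63.5% had one in neither. At each age the Cpr share with a peak in both lists thus lay between those of short genes and of all genes. The 4 found in CLAMP RNAi alone at this age, also named after the fact, were Cpr30F, Cpr65Ea, Cpr72Ec, which encodes a protein of the corneal lens, and Cpr12A. At this age the genes found in 1 genotype alone made up nearly the same share of the family as of all genes.

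The number of Cpr genes with a peak was lower by 6 in CLAMP RNAi at each age, in lists that were also shorter. When each list was cut to its strongest 15000 peaks the direction turned, with 16 Cpr genes in CLAMP RNAi and 13 in control at 2-4 h, and 16 and 13 at 0-2 h. All genes were at 30.0%, 29.8%, 29.5% and 29.8% in these equal lists. The lower number in CLAMP RNAi was therefore not found in lists of equal length.

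A single Cpr gene, Cpr72Eb, had a peak in control at both ages and in CLAMP RNAi at neither, or 1.43% of the family, against 3.59% of all genes. Cpr72Eb, at 16364899 to 16365707 on 3L, had a weak peak at its lower end, at 23.8% of control 2-4 h and 29.7% of control 0-2 h. The nearest midpoint in CLAMP RNAi was 14716 bp away at 2-4 h and 1031 bp away at 0-2 h. The reverse pattern, a peak in CLAMP RNAi at both ages and in control at neither, was found at 0 Cpr genes, against 0.56% of all genes. A peak in all lists except CLAMP RNAi 2-4 h was found at 6 Cpr genes (8.57%), against 8.37% of all genes, and the site at Cpr49Ab described with its cluster is one example.

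Within a genotype the ages were compared in the same way. In CLAMP RNAi, 10 Cpr genes had a peak at both ages, 6 at 2-4 h alone and 13 at 0-2 h alone, or 14.3%, 8.57% and 18.6%, against 23.9%, 7% and 14.4% of all genes. In control the numbers were 16, 6 and 13, or 22.9%, 8.57% and 18.6%, against 35.3%, 7.84% and 11.1%. Genes of at most 2 kb gave 9.46%, 6.93% and 13.4% in CLAMP RNAi and 19.3%, 8.5% and 11.2% in control. The share of Cpr genes with a peak at both ages thus lay below that of all genes and above that of short genes in both genotypes, and these differences were not tested.

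Across genotypes, 3 Cpr genes had a peak at 2-4 h in both genotypes and at 0-2 h in neither. These were Cpr67Fa1, Cpr67Fb and Cpr76Bc on 3L, or 4.29% of the family, against 0.95% of all genes. The opposite was found at Cpr65Ay, Cpr73D and Cpr100A, again 4.29%, against 1.72% of all genes. Genes of at most 2 kb gave 0.959% and 1.70% for these patterns. Each pattern rests on 3 genes. These 6 genes were named after their values were seen, and each of them had weak peaks, from 3.70% to 48.6% of the list. At Cpr76Bc the 2-4 h peaks of the 2 genotypes did not overlap, and Cpr67Fa1 and Cpr67Fb are neighbours within 4.704 kb. Cpr67Fa1 and Cpr67Fa2, like Cpr65Ax1 and Cpr65Ax2, are named as duplicate copies, and how reads that match both copies were placed is not stated, so peaks at them or their absence are uncertain.

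At the level of sites, peaks of the 4 lists that overlapped were merged, which gave 67 regions at Cpr genes. Of these, 9 (13.4%) held a peak of every list, against 19.8% of the 42156 regions of the genome, and 30 (44.8%) a peak of a single list, against 44.7%. Another 14 (20.9%) were common to all lists except CLAMP RNAi 2-4 h, against 15.2% genome-wide. The midpoint of 8 regions lay inside a gene other than a Cpr gene, so these could not be assigned to the Cpr gene alone.

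Control peaks at Cpr genes were found again in CLAMP RNAi, by an overlap of at least 1 base, in 12 of 36 cases at 2-4 h (33.3%, 18.6% to 51.0%), against 40.6% of all control peaks. At 0-2 h it was 27 of 43 (62.8%, 46.7% to 77.0%), against 58.1%. Between ages, 25 of 36 control 2-4 h peaks (69.4%, 51.9% to 83.7%) were found in control 0-2 h, against 74.0%. Each interval held the value of the whole list.

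Many Cpr genes lie in clusters, and those with at least 5 genes differed from each other. The largest, in 49A on 2R, has 8 Cpr genes over 38.5 kb together with 7 other genes. This stretch held 0 peaks in CLAMP RNAi and 1 in control at 2-4 h, and 1 in CLAMP RNAi and 4 in control at 0-2 h, or 0, 2.59, 2.59 and 10.4 per 100 kb. The genome as a whole held 11.9, 18.7, 16.8 and 21.1 per 100 kb, so 49A was below it in each list, on at most 4 peaks. From Cpr49Ad the nearest peak midpoint was 39653 bp away in CLAMP RNAi 2-4 h and from 12085 to 12171 bp away in the other lists. At Cpr49Ab a site inside the gene was common to control 2-4 h (42.6%), CLAMP RNAi 0-2 h (71.5%) and control 0-2 h (79.1%).

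The cluster in 47E on 2R has 7 Cpr genes over 26.7 kb and held 4, 4, 6 and 9 peaks in CLAMP RNAi 2-4 h, control 2-4 h, CLAMP RNAi 0-2 h and control 0-2 h. That is 15.0, 15.0, 22.5 and 33.7 per 100 kb, above the genome value in 3 lists and below it in control 2-4 h. Of its genes 3, 2, 3 and 5 had a peak. The cluster in 65A on 3L has 7 Cpr genes over 30.3 kb among 13 other genes, many of them larval cuticle protein genes. It held 4, 4, 7 and 7 peaks, but 1, 0, 1 and 1 of its Cpr genes had one, so most peaks of that stretch lay away from its Cpr genes.

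Other genes of cuticle formation, with a median span of 1055.5 bp, gave shares like those of all genes, whose median span was 1710 bp. A list of 76 such genes covers chitin synthesis and modification, tanning, and cuticle protein genes under other symbols, among them Lcp, Ccp84A and Twdl. Whether these encode the same motif as the Cpr genes was not examined, so they are not a reference from outside the family. Of the 76 genes, 22, 33, 25 and 34 had a peak in the 4 lists in the order above. These are 28.9%, 43.4%, 32.9% and 44.7%, against 30.9%, 43.2%, 38.3% and 46.5% of all genes. The 57 listed genes of at most 2 kb gave 21.1%, 36.8%, 24.6% and 31.6%, against 16.4%, 27.8%, 22.8% and 30.6% of all genes of that length. The interval of each listed share held the share of all genes of that length. The Cpr genes of that length gave 18.9%, 22.6%, 26.4% and 34.0%. As examples of long genes, the chitin synthase gene kkv, which spans 14774 bp, had 2 peaks in each list. The gene grh, which encodes an epidermal transcription factor and spans 41689 bp, had 12, 15, 14 and 14. In contrast, mmy (5367 bp) and serp (7039 bp) each had 1 peak, in control 0-2 h alone. Of all genes over 5 kb, 74.5%, 85.0%, 81.9% and 87.6% had a peak. The short genes Pcp, Acp1, Alas, Edg84A and Edg91 had 0 peaks in each list, whereas the short genes Edg78E, Acp65Aa, Tb and rtv each had 1 peak in 1 list. Of all genes of at most 2 kb, 53.7% had a peak in no list.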

How the data were processed

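Peak lists from CUT&RUN of MLE in male embryos were analysed, 1 list per group. Per the submitters' processing notes, FastQC, Trim Galore, BWA, Bowtie2, SAMtools, Picard 2.20.2 and MACS2 were used with the build dm6; roles, settings and the pooling of replicates are not given in the sources used here. The score column, as deposited by the authors, is a whole number of at least 13 and was used only to rank and filter peaks within a list, because its scale differs between lists. Repeated intervals were collapsed to 1 with the highest score, which removed 67, 2683, 1548 and 2519 lines in CLAMP RNAi 2-4 h, control 2-4 h, CLAMP RNAi 0-2 h and control 0-2 h. Genes came from the RefSeq table of Release 6, the assembly that dm6 names, which gives no strand or exons; coordinates are 1-based. No sequence was used here, so the planned search for promoter motifs was not run. Depth per list is unknown.

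Peaks were counted in gene spans with 500 bp to either side, and intervals are exact Clopper-Pearson intervals. Counting was tested on simulated data with planted peaks. The rule for Cpr genes uses symbols alone, but this family and the other gene lists were chosen with earlier results of these data known. Genes named are those with a peak in all 4 lists, the 3 with the highest percentile in each list, those on the X, those with peaks in 1 genotype alone at both ages, and clusters of at least 5; further genes are said to be named after their values were seen, or illustrate a count. The gene obst-C of the other cuticle genes was not matched. Computation used Python 3.11.15, numpy 2.4.6, pandas 2.3.3, scipy 1.17.1 and matplotlib 3.10.9.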

Additional observations from a re-analysis of the deposited data

Results flagged for a closer look

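For 3 results the sign of the difference, CLAMP RNAi minus control, was not the same at the 2 ages. No test of a difference between ages was made, since each group has a single list. The median percentile of peaks at Cpr genes differed by 9.47 points at 2-4 h (45.8% in CLAMP RNAi and 36.3% in control) and by -8.31 points at 0-2 h (37.1% and 45.4%). Tied scores all take the highest percentile of the tie. Peaks at all genes had medians of 61.9% in CLAMP RNAi and 51.3% in control at 2-4 h, and of 51.8% and 50.4% at 0-2 h. The Cpr median lay below these in each list. At 2-4 h the median at all genes was also higher in CLAMP RNAi than in control. The Cpr difference at that age therefore does not by itself show a change particular to the family. The number of peaks at Cpr5C differed by 1 at 2-4 h (1 in CLAMP RNAi and 0 in control) and by -1 at 0-2 h (0 and 1). The number of Cpr genes with a peak in the 47E cluster differed by 1 at 2-4 h (3 in CLAMP RNAi and 2 in control) and by -2 at 0-2 h (3 and 5).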

How the results depend on the processing

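Values are given in the order CLAMP RNAi 2-4 h, control 2-4 h, CLAMP RNAi 0-2 h and control 0-2 h. A score of at least 50 lowered the Cpr genes with a peak to 4, 14, 13 and 12 and the density to 1.80, 8.11, 6.76 and 7.21 peaks per 100 kb, and the scale of that score differs between lists. With the strongest 15000 peaks of each list the genes numbered 13 in both control lists, and density was 7.66 in the 2-4 h control and 8.56 in both CLAMP RNAi and control at 0-2 h. Those 13 genes are 18.6%, against 29.8% of all genes in either control list. Genes of at most 2 kb gave 15.7% in control 2-4 h and 15.1% in control 0-2 h. Without the flank, CLAMP RNAi 2-4 h fell to 4 genes and 3.22 peaks per 100 kb. These 4 genes are 5.71%, against 22.4% of all genes and 6.19% of genes of at most 2 kb. The CLAMP RNAi minus control difference in genes, -6 at both ages, was -12 at 2-4 h and -3 at 0-2 h without the flank, -12 at 0-2 h with a flank of 1000 bp, and -10 at 2-4 h and 1 at 0-2 h with a score of at least 50. In lists of equal length it was 3 at 2-4 h and 3 at 0-2 h, a change that also drops the weakest peaks. The causes of these moves were not tested. Placement by any base of a peak, merged windows, every line of a list, shifts of 10 kb up to 500 kb, and leaving out Cpr genes over 5 kb (added after the data were seen) kept each value within 1.5 times or its interval. No paired analysis was possible because each group has 1 list.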
